A study of Drosophila melanogaster with 4 samples.

Results

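Broad clusters of H3K9acS10P on the X chromosome of adult fruit fly heads are described here. The name stands for a histone H3 tail with an acetyl group on lysine 9 and a phosphate on the neighbouring serine 10. The broad clusters were chosen by width. In the authors' list of enriched regions that combines the replicates, every region on X with a width of at least 6000 bp was taken, which gave 309 of the 1570 clusters on X and of the 8976 clusters in the whole list. The width of the combined clusters thus chose the members, and the combined list rests on the same 2 samples as the replicate lists. All values below are therefore descriptions, and no test was made.

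Chromatin immunoprecipitation followed by sequencing was carried out on head nuclei of Oregon-R, a wild-type strain of Drosophila melanogaster, at a stage given as mixed adult. Adults came from population cages, so each sample pools many flies, and the labels do not state their sex. There were 2 ChIP samples and 2 input samples (chromatin before immunoprecipitation), with a separate input for each ChIP sample. Both groups share strain, genotype, stage and tissue, and no treatment is named, so the replicates are the only samples that can be compared. Whether the replicates were collected separately is not stated, and their spread may be technical only. A head holds neurons, glia, fat body, muscle and eye cells, and the clusters are an average over them. The read depth of each sample is unknown, and no interval for counting error in reads can be given.

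Acetylation of histone H3 at lysine 9 is known as a mark of active promoters and of the start of active genes. In flies the kinase JIL-1 phosphorylates serine 10 of histone H3 outside mitosis, and JIL-1 is known to be more abundant on the male X. Males carry a lone X, whose active genes are upregulated by the MSL complex, which spreads over gene bodies and acetylates histone H4. These are background facts, and none of them was measured here. Positions are on FlyBase release r5, 1-based with both ends included. No annotation or sequence of that release was used here, so regions are named by position and neither their genes nor their sequences are given.

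The broad clusters made up 19.7% of X clusters but 51.1% of the X sequence inside clusters, 3.31 Mb of 6.47 Mb. They occupied 14.7% of X. Their widths ran from 6001 to 51103 bp with a median of 9085 bp and an interquartile range of 7149 to 12041 bp. Of the 309, 129 measured at least 10000 bp, 79 at least 12000 bp, 18 at least 20000 bp and 5 at least 30000 bp. The remaining 1261 X clusters had a median of 2065 bp. Widths formed a continuum at the limit. Just inside it lay clusters of 6001 bp (X:19085748-19091748, score 1.17), 6003 bp (X:6546902-6552904, score 1.45) and 6121 bp (X:11588278-11594398, score 0.81). Just outside lay clusters of 5999 bp (X:7176532-7182530, score 1.15) and 5991 bp (X:9210800-9216790, score 1.44, and X:17772190-17778180, score 0.64). The scores on either side of the limit overlapped.

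In every one of the 309 broad clusters both replicates had at least 1 cluster. Among X clusters under the limit, 491 of 1261 (38.9%) were met by both replicates, 281 by 1 replicate and 489 by neither. That low share was carried by the narrowest clusters: it was 2.32% in the 604 clusters of 1 to 2 kb, 52.0% from 2 to 3 kb, 81.6% from 3 to 4.5 kb and 98.6% from 4.5 to 6 kb. Of 582 autosomal clusters that reached the limit, 580 (99.7%) were met by both, so presence in both replicates went with width and was not particular to X. Replicate 1 covered 83.5% of the sequence in broad clusters and replicate 2 covered 86.2%, a mean of 84.9% ± 1.87 (SD, n = 2). The same share for X clusters under the limit was 52.7% ± 0.616 (SD, n = 2). It takes in the 489 clusters that neither replicate met. Width in a list from the same samples divided broad from narrower clusters, so this contrast is a description only. Both replicates were enriched over 76.6% of the sequence of broad clusters and neither over 6.88%, against 39.6% and 34.1% in the narrower clusters. The covered share also rose with width without a step at the limit, from 76.3% (replicate 1) and 76.7% (replicate 2) in X clusters of 4.5 to 6 kb to 81.8% and 79.9% in those of 6 to 8 kb.

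Although all were present in both replicates, many broad clusters were split. A broad cluster was called unbroken in a replicate where exactly 1 cluster of that replicate overlapped it by at least 1 bp, and split where 2 or more did. In replicate 1, 140 were unbroken (45.3%, exact 95% binomial interval 39.7 to 51.04%), 114 lay in 2 pieces, 38 in 3 and 17 in 4 or more. In replicate 2, 157 were unbroken (50.8%, 45.1 to 56.5%), 114 lay in 2 pieces, 28 in 3 and 10 in 4 or more. Broad clusters unbroken in both replicates numbered 107 (34.6%, 29.3 to 40.2%). Another 119 (38.5%) were split in both, 50 in replicate 1 only and 33 in replicate 2 only. The intervals treat clusters as independent, which neighbours on 1 chromosome are not. The share depended on the definition. When replicate clusters at most 1000 bp apart were merged, 74.1% were unbroken in both replicates, and when 1 cluster had to cover at least 80% of the region in each replicate, 22.3% were. Under the 1-bp rule, piece counts were equal in 179 clusters, higher in replicate 1 in 80 and higher in replicate 2 in 50. By that rule 439 of the 1261 X clusters under the limit (34.8%) were unbroken in both replicates and 8 (0.63%) were split in both. The 1261 include 489 clusters that neither replicate met and 281 that 1 replicate met, which cannot be unbroken in both. In X clusters of 4500 to 6000 bp, 101 of 139 (72.7%) were unbroken in both replicates.

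Above the limit the share of clusters unbroken in both replicates fell with width. Of the 113 clusters of 6 to 8 kb, 58 (51.3%, exact 95% interval 41.7 to 60.8%) were unbroken in both replicates. The count was 42 of 117 (35.9%, 27.2 to 45.3%) from 8 to 12 kb and 7 of 61 (11.5%, 4.74 to 22.2%) from 12 to 20 kb. None of the 18 clusters of 20 kb or more was unbroken in both replicates (exact 95% upper limit 18.5%). In that widest class the mean number of pieces was 3.67 in replicate 1 and 3.11 in replicate 2, against 1.37 and 1.30 from 6 to 8 kb. The covered share moved the other way. From 6 to 8 kb replicate 1 covered 81.8% and replicate 2 covered 79.9%, and at 20 kb or more they covered 87.3% and 90.3%. Wider clusters thus held more breaks, while gaps and edges together took up a smaller share of them. Their longest pieces were also longer. The median longest piece was 5041 bp in replicate 1 and 5397 bp in replicate 2 from 6 to 8 kb. At 20 kb or more it was 12193 and 16469.5 bp.

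**Figure D1:**
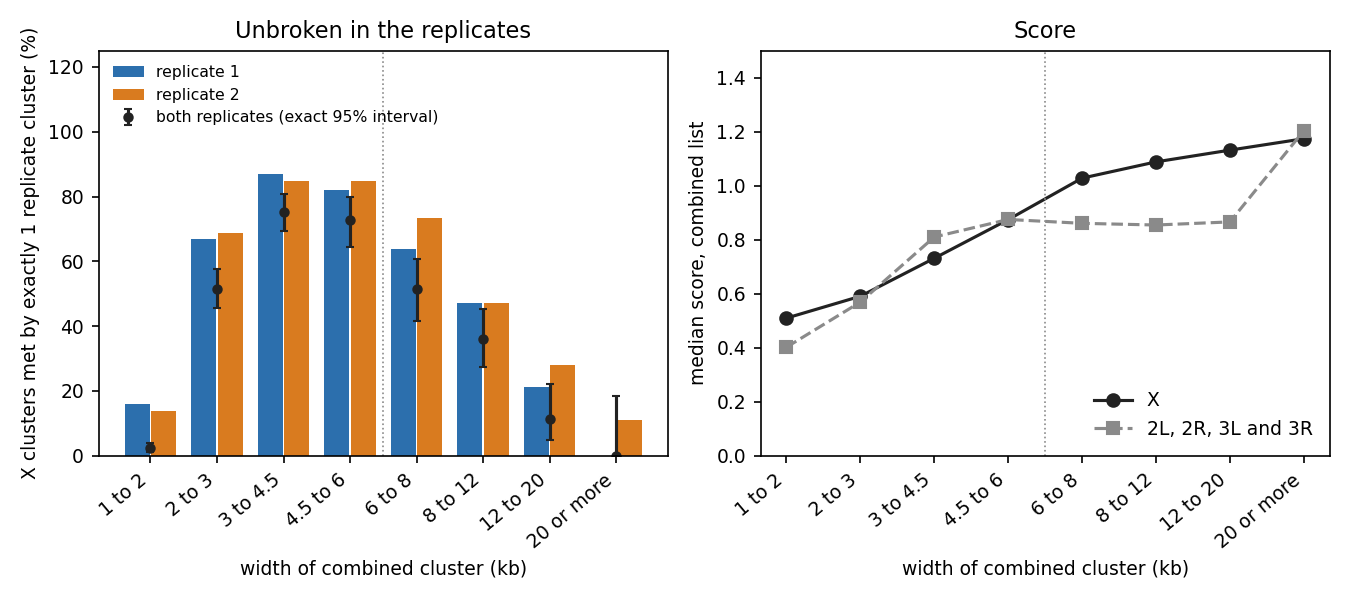
Left, share (%) of X clusters of the combined list that exactly 1 replicate cluster overlapped, by width class in kb, with bars for each replicate and points for both replicates at once (error bars, exact 95% binomial intervals). Right, median score in the combined list by the same classes on X and on the 4 large autosomal arms; the dotted line marks 6 kb, and the widest autosomal class holds 2 clusters. Above 6 kb the share unbroken in both replicates goes down from 51.3% to 0 of 18, while the median score on X goes up from 1.03 to 1.17.

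The breaks were short. Inside the broad clusters replicate 1 left 247 gaps between pieces, with a median of 580 bp, an interquartile range of 228 to 991.5 bp and a highest value of 3400 bp. Replicate 2 left 208 gaps with a median of 455.5 bp, an interquartile range of 185.5 to 859.25 bp and a highest value of 4408 bp. Gaps of at most 1000 bp made up 75.7% and 77.9%, and 28 and 29 gaps measured at most 100 bp. Gaps accounted for 32.9% of the uncovered sequence in replicate 1 and 29.8% in replicate 2. The rest lay at the edges, where the combined cluster extended a median of 265 bp beyond replicate 1's first piece and 251 bp beyond its last, and 224 and 200 bp in replicate 2. Replicate clusters ran past an edge of 41 broad clusters in replicate 1 and of 70 in replicate 2.

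Most breaks were not placed alike. Of replicate 1's 247 gaps, 94 (38.1%) overlapped a gap of replicate 2, and in the other direction 93 of 208 (44.7%) did. The remaining gaps of each replicate, 153 and 115, lay where the other replicate had no gap between pieces. They include gaps in the 50 and 33 clusters split in replicate 1 only and in replicate 2 only. A break at a shared position occurred in 81 of the 309 broad clusters (26.2%). It could occur only in the 119 that were split in both replicates. In autosomal broad clusters 45.8% of replicate 1's gaps and 39.7% of replicate 2's overlapped a gap of the other replicate. These shares were in the same range as on X. A shared break occurred in 19.9% of all autosomal broad clusters, whether split in both replicates or not. No chance level was computed for the overlap of gaps. The length of the longest piece ranked alike in the replicates with Spearman's rho = 0.60 across the 309 clusters, the number of pieces with rho = 0.51 and the covered share with rho = 0.35. Clusters share both samples and are not replicates, and longest piece and number of pieces depend on width in both samples.

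The widest broad clusters show how the replicates differ in the placing of breaks. The cluster at X:15593824-15644926 measured 51.1 kb and scored 1.13. Replicate 1 covered 88.2% of it in 5 pieces and replicate 2 covered 92.3% in 5 pieces, with longest pieces of 27525 and 31280 bp. Each replicate left 4 gaps in it, and 2 of them overlapped between the replicates. One of those was 3260 bp long in replicate 1 (X:15599464-15602723) and 541 bp long in replicate 2 (X:15599551-15600091). Both shared gaps lay to the left of the longest piece, which formed the right part of the cluster in both replicates.

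The second widest, at X:2516368-2555196 (38.8 kb), had the lowest score of the 10 widest, 0.87. Replicate 1 held 7 pieces over 76.7% of it, the longest 8434 bp, and replicate 2 held 5 pieces over 86.3%, the longest 17526 bp. No other broad cluster lay in as many as 12 pieces over both replicates together, save X:3662384-3681760 described below. By contrast the third widest, at X:1750964-1785740 (34.8 kb, score 1.68), was nearly filled, with 98.4% of it enriched in replicate 1 and 98.2% in replicate 2. It counted as split in both only through a gap of 9 bp in replicate 1 and a gap of 71 bp in replicate 2, at different places. Its mean piece score was 1.67 in replicate 1 and 1.71 in replicate 2.

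Of the next 3, X:15760540-15793280 (32.7 kb, score 1.29) lay in 4 pieces in each replicate, which covered 89.2% and 98.1% of it. X:21204242-21235228 (31.0 kb, score 1.06) lay in 2 pieces over 75.2% in replicate 1 and in 4 pieces over 87.4% in replicate 2, and both left a gap at the same place, of 3400 and 1523 bp. X:19371330-19396100 (24.8 kb, score 1.17) lay in 4 pieces over 79.2% and in 2 pieces over 90.5%, with no shared gap. The other 4 were X:1962988-1987500, X:1787182-1811562, X:512476-536726 and X:379254-402744. They measured 23.5 to 24.5 kb, scored 1.18 to 1.39 and were covered to between 81.6% and 97.3% in either replicate. Over the 10 widest clusters, 9 of replicate 1's 25 gaps and 9 of replicate 2's 23 gaps overlapped a gap of the other replicate.

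**Figure D2:**
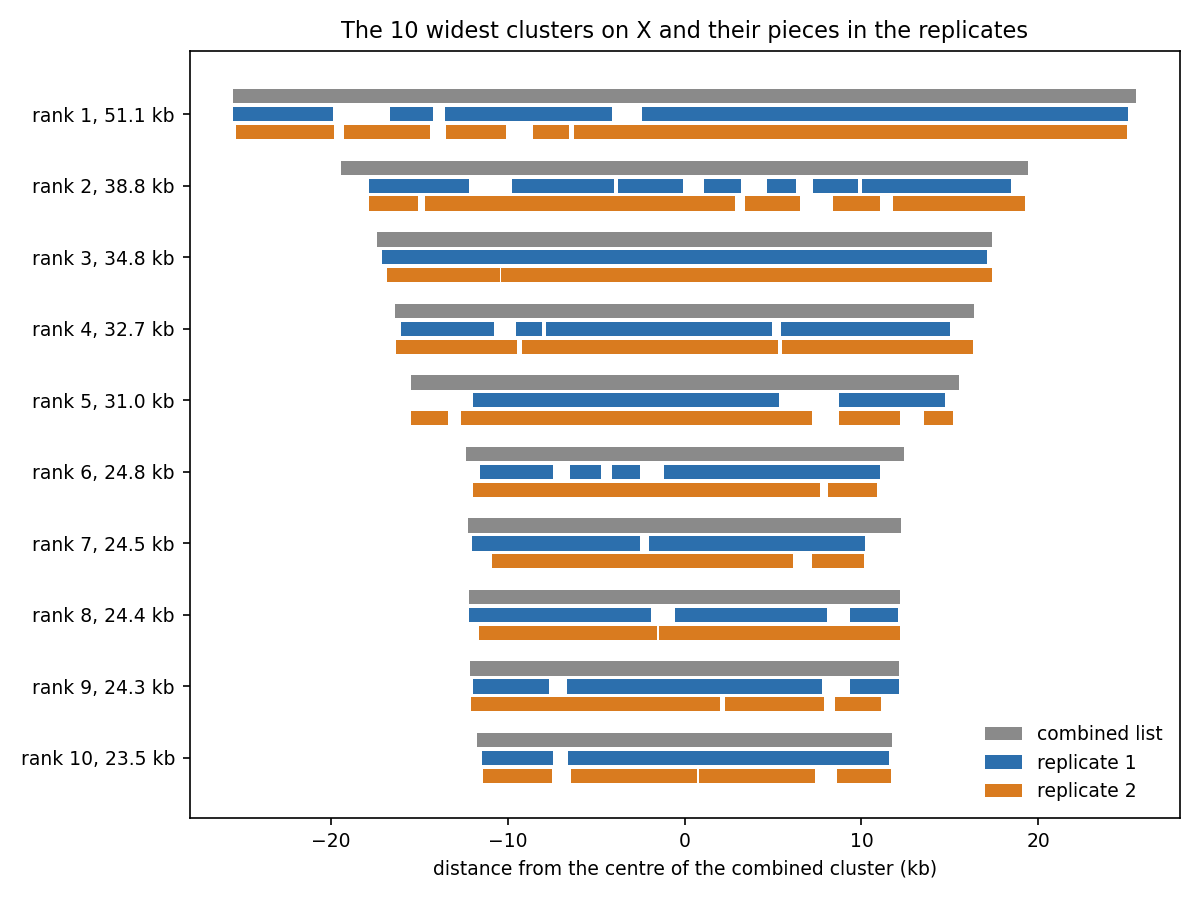
The 10 widest broad clusters on X, ordered by width, each with the combined cluster (grey) above its pieces in replicate 1 (blue) and replicate 2 (orange), by distance from the centre of the combined cluster in kb. Gaps between pieces sit at different places in the replicates in many of the 10, and the third, of 34.8 kb, is nearly filled in both (its gaps of 9 and 71 bp are hardly visible at this scale).

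The widest clusters that were unbroken in both replicates were narrower. The first, at X:15874480-15893222, measured 18.7 kb with a score of 1.49, and its pieces in replicates 1 and 2 were 17362 and 17443 bp long. Next came X:9045022-9060046 (15.0 kb, score 1.22, pieces of 14143 and 14561 bp) and X:2118412-2131968 (13.6 kb, score 1.28, pieces of 13213 and 13445 bp). In each of the 3 the piece was slightly longer in replicate 2. At the other end, X:3662384-3681760 (19.4 kb) lay in 5 pieces in replicate 1 and 7 in replicate 2. The longest of these were 3423 and 3726 bp. Only 48.4% of it was enriched in both replicates, and its score of 0.57 was the lowest of all broad clusters. X:1558196-1580966 (22.8 kb, score 1.06) lay in 4 and 7 pieces, but 77.0% of it was enriched in both.

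For 24 of the 309 broad clusters (7.77%) less than 50% of the sequence was enriched in both replicates. The lowest shares were in X:6602622-6608950 (18.0%), X:504994-512102 (18.4%) and X:20269262-20276292 (19.1%), which measured 6.33, 7.11 and 7.03 kb. In the first, replicate 1 covered 22.5% and replicate 2 covered 86.4%. In the second each replicate covered about the same amount, 52.4% and 53.5%, but mostly different sequence. In the third, replicate 1 covered 19.1% with a piece of 1340 bp that scored 0.69 and replicate 2 covered 87.5% with a piece of 6155 bp that scored 1.15.

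Wide clusters were also found within each replicate's own list. Clusters of at least 6000 bp on X numbered 167 of 1231 in replicate 1 and 191 of 1151 in replicate 2, a mean of 15.1% ± 2.14 (SD, n = 2) of X clusters. On the autosomal arms the same share was 5.22% ± 0.88 for 2L, 4.86% ± 1.00 for 2R, 4.38% ± 0.88 for 3L and 5.38% ± 0.042 for 3R (SD, n = 2 each). The values on X were above those on all 4 arms in both replicates, by more than the spread between replicates. Of replicate 1's wide X clusters 135 (80.8%) overlapped a wide cluster of replicate 2, and 134 of replicate 2's (70.2%) overlapped one of replicate 1. All 167 of replicate 1 and 189 of 191 of replicate 2 overlapped a broad combined cluster. The other 2, named after their values were seen, lay at X:11001745-11010664 and X:19093036-19100142 and each met 2 narrower combined clusters.

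The scores of the broad clusters were high for X and only weakly related to their width. The scale of the authors' score is not stated, so differences and ranks are given and no ratios. Broad clusters scored between 0.57 and 1.85 in the combined list, with a median of 1.09 and an interquartile range of 0.91 to 1.23. The X clusters under the limit had a median of 0.57, a difference of 0.51. Against X clusters of 3000 bp up to the limit (n = 378) the difference was 0.31. In the replicates' own lists, X clusters that overlapped a broad cluster had a median score 0.27 above other X clusters in both replicate 1 and replicate 2. These replicate clusters were not matched for width, and width in a list from the same samples chose the broad clusters. Within the broad clusters width and score were only weakly related (Spearman's rho = 0.15 across 309 clusters), whereas rho was 0.58 across the 1261 narrower ones.

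The highest scores among broad clusters were mostly in clusters near the limit in width. X:6902666-6909364 (6.70 kb) scored 1.85 in the combined list, while its pieces scored 1.96 (replicate 1) and 1.82 (replicate 2). It was followed by X:4541010-4547334 (6.33 kb, 1.69), the 34.8-kb cluster named above (1.68), X:17798556-17804862 (6.31 kb, 1.67) and X:2070010-2081552 (11.5 kb, 1.64). All except the 34.8-kb cluster were unbroken in both replicates. The lowest scores, 0.57 to 0.59, belonged to X:3662384-3681760, X:17477470-17483600, X:6602622-6608950, X:13595970-13602644 and X:4224968-4231452, and each of these was split in at least 1 replicate. Only 1 narrower cluster on X scored above the highest broad cluster.

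Unbroken broad clusters had higher median scores than split ones of like width, with overlapping values. From 6 to 8 kb the median score was 1.15 in the 58 clusters unbroken in both replicates and 0.86 in the 16 split in both. From 8 to 12 kb it was 1.17 in 42 and 0.95 in 49, and from 12 to 20 kb it was 1.24 in 7 and 1.07 in 38. Clusters split in 1 replicate only lay between these values in all 3 classes, with 0.94, 1.09 and 1.14. Score and pieces come from the same samples, so the relation is within these data. The mean score of the pieces, weighted by length, ranked alike in the replicates with Spearman's rho = 0.81 across the 309 broad clusters. Replicate 1 was above replicate 2 in 134 of them, and the difference had a median of -0.020 and an SD of 0.14 across clusters.

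**Figure D3:**
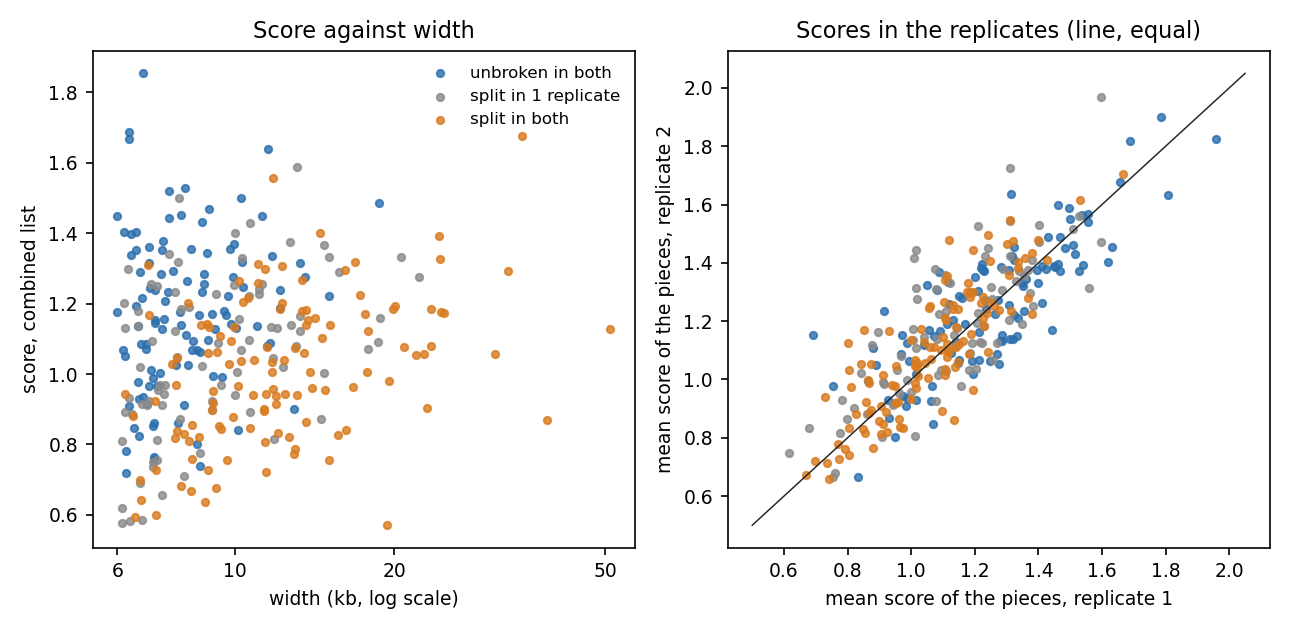
Left, score in the combined list against width in kb (log axis) for the 309 broad clusters on X. Right, length-weighted mean score of the pieces in replicate 2 against replicate 1, with a line of equal scores. Points are coloured by whether the cluster was unbroken in both replicates, split in 1 or split in both. Unbroken clusters tend to sit higher at like width, with wide overlap, and no unbroken cluster (unbroken in both replicates) is wider than 18.7 kb.

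Along X the broad clusters were spread over the whole arm but unevenly. Each of the 22 full windows of 1 Mb held between 4 and 21, with a median of 15. In 4 equal parts of X, from the telomere end, they numbered 78, 85, 84 and 62. The share of a window inside broad clusters ran from 3.85 to 27.0% with a median of 14.9%. It was highest from 1 to 2 Mb (27.0%, of which replicates 1 and 2 covered 22.6 and 24.4 points of the window) and from 15 to 16 Mb (25.4%, with 22.6 and 22.6 points). Windows from 6 to 7 Mb and from 11 to 12 Mb held the most broad clusters, 21 each, but at 22.0% and 22.3% a smaller share of them lay in broad clusters, whose median widths were 10013 and 8901 bp against 12491 and 10128 bp in the former windows.

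The window from 14 to 15 Mb was the poorest, with 4 broad clusters over 3.85% of it, although it held 62 narrower clusters. In it lay the longest stretch without a broad cluster, 818 kb from X:14137791 to X:14956231, in which the combined list had 50 narrower clusters. The next longest such stretches measured 509 kb (X:20396991-20905673), with 9 narrower clusters, and 399 kb (X:13726905-14125519), with 23. Over windows the number of broad clusters and the number of narrower ones were weakly related (Spearman's rho = 0.20 across 22 windows, which share both samples). The number of wide clusters in the replicates' own lists ranked alike (rho = 0.75).

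Very wide broad clusters were uneven too. Of the 18 of at least 20 kb, 7 lay in the first 2 Mb of X. They include the neighbours X:1750964-1785740 and X:1787182-1811562, separated by 1441 bp. The 1 to 2 Mb window also had the most wide clusters in each replicate's own list, 16 in replicate 1 and 17 in replicate 2. How continuous the broad clusters were differed between windows. From 2 to 3 Mb 13 of 18 were unbroken in both replicates, from 16 to 17 Mb 10 of 19, from 1 to 2 Mb 4 of 18, and from the telomere to 1 Mb 2 of 15. Windows were ranked after their values were seen.

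**Figure D4:**
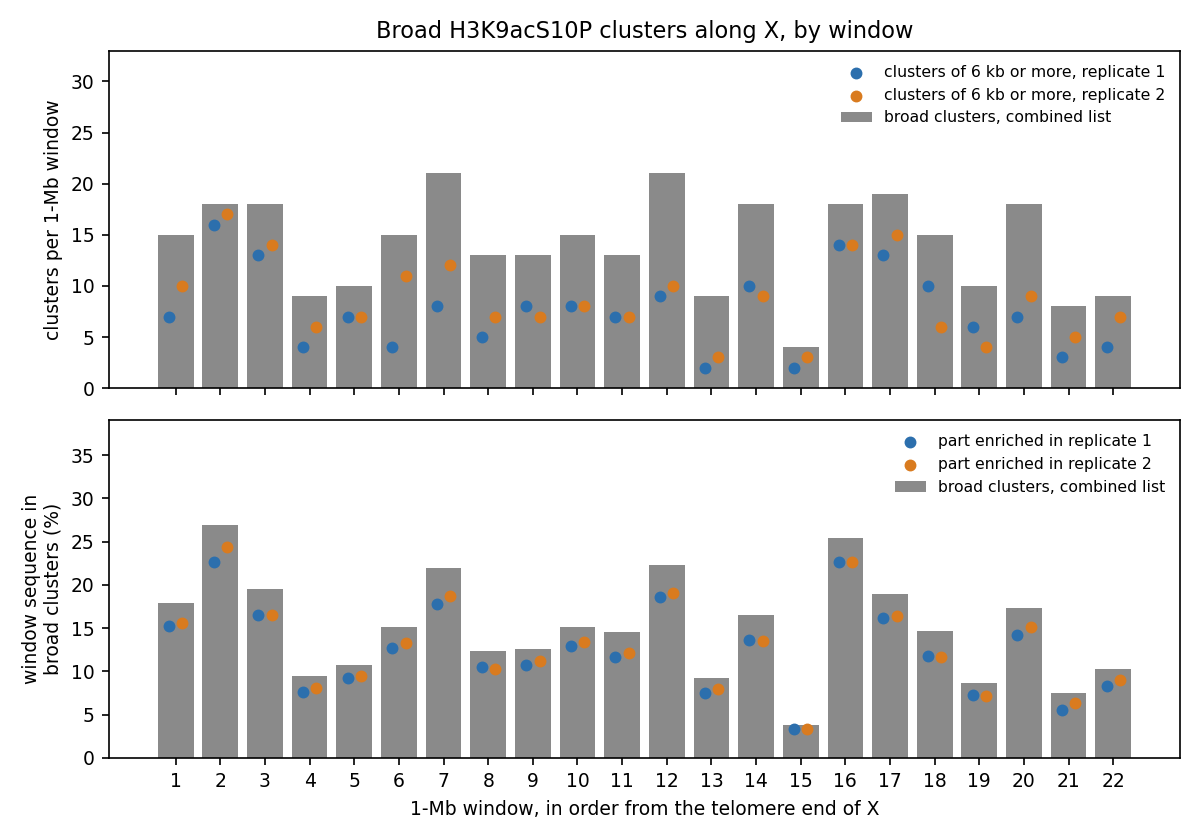
Top, number of broad clusters per 1-Mb window of X (bars) with the number of clusters of at least 6 kb in each replicate's own list (points). Bottom, share (%) of each window inside broad clusters of the combined list (bars) and the part of the window that each replicate covered within them (points); windows are in order from the telomere end. The second and the sixteenth window stand highest in the lower panel, at 27.0% and 25.4%, and the fifteenth lowest, at 3.85%.

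Broad clusters lay close together. The 308 gaps between neighbours had a median of 19.1 kb, and the middle 50% of them ran from 3238 bp to 77.9 kb. The nearest other broad cluster was a median of 5.04 kb away, and 237 of 309 (76.7%) had one within 20 kb. A cluster of any width lay within 1000 bp of 221 broad clusters (71.5%), against 622 of 1261 narrower X clusters (49.3%). Only 6 broad clusters (1.94%) had no cluster within 10 kb, against 98 narrower ones (7.77%). The nearest cluster of any width was a median of 521 bp away for the broad and 1065 bp for the narrower clusters. For 86 of the 308 gaps the next cluster along X was itself broad, while 19.7% of all X clusters were broad.

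**Figure D5:**
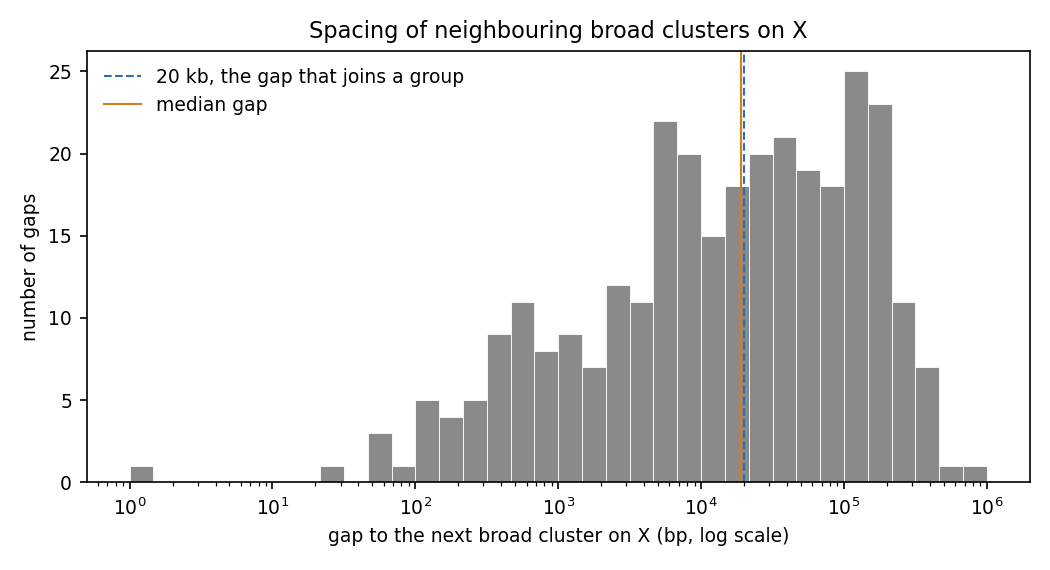
Number of gaps between neighbouring broad clusters on X by gap length in bp (log axis). The solid line marks the median of 19.1 kb and the dashed line marks 20 kb, the largest gap that joined neighbours into a group. Gaps reach from 1 bp to 818 kb, and 48 of the 308 are at most 1000 bp long.

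Neighbours at most 1000 bp apart formed 48 pairs. A lone replicate cluster spanned the gap of 1 pair in replicate 1 and of 1 pair in replicate 2, and 46 pairs were separate in both replicates. The closest set was a run of 3 at X:5210502-5217396, X:5217428-5228492 and X:5228494-5236778, with gaps of 31 and 1 bp. These scored 0.92, 1.31 and 0.76. The gap of 1 bp was the one that replicate 1 spanned, with a cluster at X:5228479-5232061, and no cluster of replicate 2 crossed it. The pair spanned by replicate 2, X:5555204-5562092 and X:5562144-5572120, lay 51 bp apart. When all combined clusters at most 1000 bp apart were merged, 322 merged clusters on X reached the limit, with a median of 11739 bp and a widest of 57.6 kb (X:21204242-21261868).

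Joined at gaps of at most 20 kb, the broad clusters formed 79 groups of 2 or more, and 72 stood alone. Groups of 4 or more numbered 19 and held 98 broad clusters. Members of groups and those alone were alike in median width (9159 and 8769 bp), in median score (1.09 and 1.06) and in the share unbroken in both replicates (33.3% and 38.9%). The largest group had 8 broad clusters over 127.2 kb at X:7947274-8074432. They were 6161 to 16719 bp wide and scored 0.82 to 1.40. Of its length, 62.2% lay in broad clusters and 78.7% in combined clusters of any width. Replicate 1's clusters, inside and outside the broad ones, covered 60.02% of the whole span and replicate 2's covered 60.7%. Only 3 of the 8 were unbroken in both replicates.

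The other large groups had 7 broad clusters each. The group at X:16174452-16275734 spanned 101.3 kb, with scores of 1.05 to 1.45. In it 6 of 7 broad clusters were unbroken in both replicates. Combined clusters of any width took up 81.5% of the span, and all clusters of the replicates covered 69.0% and 69.2% of it. The group at X:2118412-2201320 spanned 82.9 kb, of which 83.7% lay in broad clusters and 88.3% in combined clusters of any width. All clusters of the replicates covered 76.0% and 75.1% of the span. Here 5 of 7 were unbroken in both replicates. Its first 4 broad clusters scored 1.18 to 1.47 and were all unbroken in both replicates, and its last 3 scored 0.70 to 0.84.

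Broad clusters on the large autosomal arms (2L, 2R, and both arms of chromosome 3), taken by the same rule, numbered 582 of 7252 clusters (8.03%) and had a median width of 7545 bp. X held 34.7% (exact 95% interval 31.6 to 37.9%) of the 891 broad clusters of the 5 large arms, while it makes up 18.8% of their length. This interval too treats clusters as independent, which neighbours are not. The share on X rose with width, from 24.2% of clusters of 6 to 8 kb to 38.7% from 8 to 12 kb, 59.2% from 12 to 20 kb and 90.0% (18 of 20) at 20 kb or more. In the classes from 2 to 6 kb it ran from 13.2 to 17.7%, below the share of X in length. This contrast depended on how neighbours were divided. Once clusters at most 1000 bp apart were merged, X held 23.3% of those that reached the limit.

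The score of broad clusters also differed. From 6 to 8 kb the median was 1.03 on X and 0.86 on the autosomal arms, from 8 to 12 kb 1.09 and 0.85, and from 12 to 20 kb 1.13 and 0.87. From 3 to 4.5 kb the order was the other way, with 0.73 on X and 0.81 on the autosomal arms, and from 4.5 to 6 kb the medians were 0.87 and 0.88. X was higher in the narrowest classes, with 0.51 against 0.40 from 1 to 2 kb and 0.59 against 0.57 from 2 to 3 kb. At 20 kb or more the medians were 1.17 on X and 1.20 in the 2 autosomal clusters. Autosomal broad clusters were farther apart, with a median gap of 78.4 kb and 39.9% within 20 kb of another, at 6.02 per Mb against 13.8 per Mb on X. They were unbroken in both replicates in 41.9% of cases, against 34.6% on X, and covered to 83.0% ± 1.46 (SD, n = 2), against 84.9% ± 1.87 on X, a difference within the spread between replicates. Broad clusters on X were also wider, and the part of width in the difference in continuity was not tested.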

How the data were processed

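H3K9acS10P was mapped by ChIP-seq in 2 ChIP samples with 2 input samples. The aligner was Bowtie 0.12.7, as the submitters' processing notes name it, and positions are on FlyBase r5, per the file headers. The authors deposited regions of significant enrichment with 1 score per region for each ChIP sample (6365 and 6419 clusters) and for both combined (8976). The sources used here do not give the caller, the threshold, the scale of the deposited score or the way of combining. Reads, coverage and values of the inputs alone were not analysed here, so depth is unknown.

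Members were combined clusters on X of at least 6000 bp. For each, the clusters of each replicate that overlapped it by at least 1 bp were counted and their overlap summed. Neighbours were joined at gaps of at most 20 kb, and windows of 1 Mb took clusters by midpoint. Named regions were the 10 widest, the 5 highest and 5 lowest in score, and 3 each for most pieces, widest unbroken, lowest share in both replicates, largest group, and either side of the limit. Members, classes and rules were chosen with earlier results of these data known. Python 3.11.15, pandas 2.3.3, numpy 2.4.6 and scipy 1.17.1 were used. The interval functions were tested on simulated data. The gene table at hand is of another release and was not used.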

Additional observations from a re-analysis of the deposited data

How the results depend on the processing

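Widths of at least 8000 and 10000 bp left 196 and 129 broad clusters on X. The share unbroken in both replicates was 42.8% at 5000 bp, 25% at 8000 bp and 14.0% at 10000 bp. It was 53.1% and 74.1% once replicate clusters at most 500 and 1000 bp apart were merged, 46.9% with replicate clusters above the median score only, and 22.3% when 1 cluster had to cover at least 80%. With 1 replicate left out it was 45.3 to 50.8%. The covered share was 87.0% at 10000 bp and 78.2% with replicate clusters above the median score, and 83.5 to 86.2% with 1 replicate left out. The score difference to narrower X clusters was 0.50 at 5000 bp and 0.54 at 10000 bp, 0.31 against clusters of 3000 bp up to the limit and 0.32 against those found in both replicates. The share of broad clusters on X was 29.6% at 5000 bp, 46.1% at 8000 bp, 55.4% at 10000 bp, 23.3% after merging at 1000 bp, 38.0% in replicate 1's list and 45.2% in replicate 2's. In 16 of 39 alternatives the value stayed near the reported one, by 1.5 times for a count and by the interval or SD for a share or difference. They include the covered share with 1 replicate left out, given above. Among the 16, the number of groups, with each broad cluster that stood alone counted as 1, ran from 102 to 180. By that count the reported number was 151. All 309 broad clusters scored above the median of the combined list. Only the score difference had a sign that could reverse, and it stayed positive in each of its alternatives. The causes were not tested. Depth is unknown, and whether breaks would close with more reads was not tested. The labels give shared replicate numbers to ChIP and input samples. No paired analysis of them was possible, because only the ChIP samples had cluster lists to compare. Values within each replicate are given side by side.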
